A study of Mus musculus with 12 samples.

Results

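The BCL2 family genes examined here were Bid, Bad, Bcl2l11, Bbc3, Pmaip1, Bax, Bak1, Bcl2, Bcl2l1 and Mcl1. They were followed on mouse expression arrays by every probe set whose platform annotation gave exactly 1 of these 10 symbols. A probe set is the group of short probes that reports one transcript region. The rule found 29 of the 45101 probe sets on the array, belonging to 9 of the 10 genes, out of 18193 genes whose symbol stood alone on at least 1 probe set. No probe set carried the symbol Bax alone, so Bax was not analysed here. Of the 29, 25 were bright enough to be tested: 3 of 3 for Bid, 2 of 2 for Bad, 5 of 5 for Bcl2l11, 1 of 1 for Bbc3, 1 of 1 for Pmaip1, 1 of 2 for Bak1, 3 of 5 for Bcl2, 3 of 4 for Bcl2l1 and 6 of 6 for Mcl1.

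The study compared whole testes at postnatal day 7 from 3 groups of mice, all on a hybrid background given in the labels as C57BL/6, 129S5, SvEvBrd: Sohlh1-/-, Sohlh2-/- and wild-type. SOHLH1 and SOHLH2 are basic helix-loop-helix transcription factors of germ cells that are needed for spermatogonia to differentiate. Each group had 4 arrays, and each array held a pool of 3 testes from 3 animals, so that 12 animals stood behind a group. The testis at this age holds spermatogonia together with Sertoli, Leydig, peritubular and other somatic cells.

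Proteins of the BCL2 family decide whether the outer mitochondrial membrane is opened, the step that releases cytochrome c and starts the caspases. BAX and BAK open the membrane; BCL2, BCL-XL (from Bcl2l1) and MCL1 hold them in check; and BH3-only proteins, among them BID, BIM (from Bcl2l11), BAD, PUMA (from Bbc3) and NOXA (from Pmaip1), relay death signals by binding the other members. In the mouse testis a wave of germ cell death accompanies the first round of spermatogenesis, and loss of Bax, or loss of Bim together with Bik, disturbs this death and leaves males unable to make sperm. Messenger levels are only one layer of this control, because BID is also controlled by cleavage, BAD by phosphorylation and MCL1 by rapid turnover.

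Bcl2l11, the gene of BIM, and Bid each had 1 probe set that fell in both knockouts, to 45.3% of the wild-type level for Bcl2l11 and to 67.9% and 65.9% for Bid. When both knockouts were averaged, Pmaip1 rose 1.96-fold and 1 of 6 Mcl1 probe sets fell to 71.2%. No probe set of Bad, Bbc3, Bak1, Bcl2 or Bcl2l1 passed the test in these comparisons. The promoters of Bcl2l11 and Bid, 250 bases before to 50 after each RefSeq transcription start in GRCm38.p6, are printed because these genes had the called probe sets in both knockouts. They were searched for the E-box, the motif bound by basic helix-loop-helix proteins (CANNTG, which reads the same on both strands), and for the forkhead motif GTAAACA on either strand. Capitals mark the matches, each line runs 5′ to 3′ on the gene's own strand, and the regions are chr6:120916775-120917074 on the minus strand for Bid and chr2:128125788-128126087 and chr2:128127325-128127624 on the plus strand for the pair of Bcl2l11 starts.
Bid: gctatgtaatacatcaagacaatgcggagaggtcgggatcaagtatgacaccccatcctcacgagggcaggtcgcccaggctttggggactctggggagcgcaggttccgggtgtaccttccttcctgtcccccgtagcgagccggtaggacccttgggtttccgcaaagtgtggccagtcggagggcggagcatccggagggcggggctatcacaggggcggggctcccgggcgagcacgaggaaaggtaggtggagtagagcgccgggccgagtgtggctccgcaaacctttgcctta
Bcl2l11, first start: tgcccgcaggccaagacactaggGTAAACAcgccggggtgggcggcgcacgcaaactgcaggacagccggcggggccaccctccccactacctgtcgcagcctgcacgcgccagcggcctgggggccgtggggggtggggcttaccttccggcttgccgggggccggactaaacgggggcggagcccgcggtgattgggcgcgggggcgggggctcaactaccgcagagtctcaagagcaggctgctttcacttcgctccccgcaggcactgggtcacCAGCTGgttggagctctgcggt
Bcl2l11, second start: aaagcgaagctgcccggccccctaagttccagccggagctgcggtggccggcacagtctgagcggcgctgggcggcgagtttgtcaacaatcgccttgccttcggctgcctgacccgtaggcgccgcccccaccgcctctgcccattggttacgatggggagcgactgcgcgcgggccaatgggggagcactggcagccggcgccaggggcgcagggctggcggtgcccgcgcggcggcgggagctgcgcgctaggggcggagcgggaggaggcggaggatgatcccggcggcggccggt
The Bid promoter held neither motif. The first Bcl2l11 promoter held 1 E-box, CAGCTG, whose first base lies at position 29 counted from the start, and 1 forkhead match at position -227, while the second held neither. An E-box occurred in 72.3% of 32851 mouse promoters of the same 300 base pairs and the forkhead motif in 3.65%. Of the 10 genes, 9 had a promoter entry, with 15 promoters in all. An E-box stood in 10 of these 15 promoters, belonging to 6 genes, and the forkhead match in 2, one of Bcl2l11 and one of Bbc3.

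Levels are MAS5 signals in the linear units of the deposited table, and they compare arrays on 1 probe set, not probe sets with each other. Differences are log2 fold changes, knockout minus wild type, on the scale log2(signal + 14.2), and a probe set was called where limma's Benjamini-Hochberg adjusted p over all 28694 tested probe sets was under 0.05. The p-values measure only the spread between these pools of testes. The targeted gene Sohlh1 had a signal of 104, 61.0 and 50.2 on Sohlh1 knockout 2, 3 and 4 but 595 on the array labelled Sohlh1 knockout 5, and 126 on the array labelled Sohlh2 knockout 1 against 465 to 563 on the other Sohlh2 knockout arrays, with 1174 ± 50.9 in wild type (SD, n = 4). Sohlh2 had 94.4 on the array labelled Sohlh1 knockout 5 against 1556 to 1783 on the other Sohlh1 knockout arrays, and 1847 on the array labelled Sohlh2 knockout 1 against 73.2 to 157 on the other Sohlh2 knockout arrays, with 1050.5 ± 134 in wild type (SD, n = 4). The arrays labelled Sohlh1 knockout 5 and Sohlh2 knockout 1 therefore go against their labels, and each knockout value below includes 1 of them. The ratio of 3′ to 5′ actin signal, a measure of RNA integrity, was 2.10 on Sohlh1 knockout 2 and 3.56 on the array labelled Sohlh2 knockout 1, against 1.30 to 1.45 on the other 10 arrays. Results for the called member probe sets are given again without these arrays. For genes of the further lists they are not, so those values rest on all 12 arrays as labelled.

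**Figure D1:**
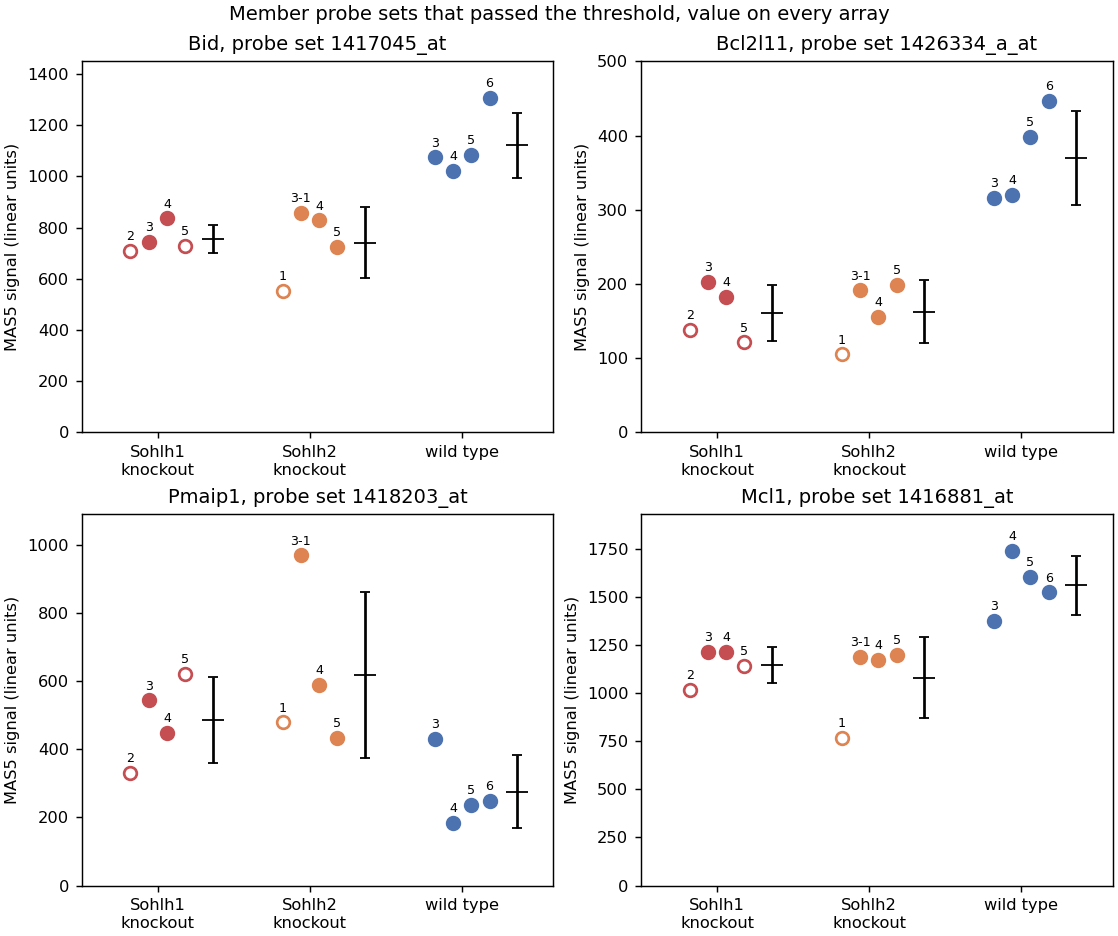
Signal in linear MAS5 units on the y axis for the 4 called probe sets, with Sohlh1 knockout, Sohlh2 knockout and wild type along the x axis; each point is 1 array with its replicate number, and bars show the mean ± SD of 4 arrays. Open points are Sohlh1 knockout 2 and the arrays labelled Sohlh1 knockout 5 and Sohlh2 knockout 1; on Bid 1417045_at and Bcl2l11 1426334_a_at all 8 knockout arrays lie below all 4 wild-type arrays, and Pmaip1 and Mcl1 passed the threshold only for the mean of both knockouts.

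Bcl2l11 encodes BIM, a BH3-only protein that can bind every anti-apoptotic member and can activate BAX and BAK directly. Its probe set 1426334_a_at gave signals of 138, 203, 182 and 121 in the Sohlh1 knockout samples 2, 3, 4 and 5. The Sohlh2 knockout arrays 1, 3-1, 4 and 5 gave 105, 191, 156 and 198, and the wild-type arrays 3, 4, 5 and 6 gave 316, 320.5, 398 and 446. The lowest wild-type array was thus above the highest knockout array, and the 2 knockouts overlapped. The group means were 161 ± 37.9 in Sohlh1 knockout, 163 ± 42.6 in Sohlh2 knockout and 370.2 ± 63.1 in wild type (SD, n = 4 each). The probe set fell in both knockouts by limma: by 1.14 on the log2 scale in Sohlh1 knockout (SE 0.21, adjusted p = 0.0121) and likewise by 1.14 in Sohlh2 knockout (SE 0.21, adjusted p = 0.0136), to 45.3% of the wild-type level in each. The mean of both knockouts against wild type had an adjusted p of 0.00303. Without the 3 arrays named above, which leaves 2 Sohlh1 and 3 Sohlh2 knockout arrays, the change was -0.88 (adjusted p = 0.0297) in Sohlh1 knockout, -0.96 (adjusted p = 0.00711) in Sohlh2 knockout and -0.92 (adjusted p = 0.00271) for the mean of both. Leaving out wild type 6 ended the call in Sohlh1 knockout (adjusted p = 0.0546), leaving out wild type 5 or 6 ended it in Sohlh2 knockout (up to 0.0589), and the mean of both kept its call without any 1 array. Over 28 alternative settings the adjusted p ran between 0.00183 and 0.0616 for Sohlh1 knockout, between 0.00495 and 0.230 for Sohlh2 knockout and between 8.16e-04 and 0.0472 for the mean of both.

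None of the other 4 Bcl2l11 probe sets passed the test, and they differed in direction, as the plot of every array on every Bcl2l11 and Mcl1 probe set shows. Probe set 1435448_at had signals of 1242, 816, 901 and 912 in Sohlh1 knockout and 1110, 875, 980 and 881 in Sohlh2 knockout, against 784, 665, 674 and 755 in wild type. Here all 8 knockout arrays were above all 4 wild-type arrays. The log2 fold change was 0.41 in each knockout (SE 0.13), with adjusted p = 0.149 in Sohlh1 knockout and 0.167 in Sohlh2 knockout, so that neither passed. On 1435449_at the signals were 139, 256, 244 and 219 in Sohlh1 knockout and 159, 285, 274 and 334 in Sohlh2 knockout, against 296, 293, 300.1 and 369 in wild type. All Sohlh1 knockout arrays were below wild type here, as on 1426334_a_at, while Sohlh2 knockout 5 overlapped with it; the estimates of -0.55 in Sohlh1 knockout (adjusted p = 0.250) and -0.29 in Sohlh2 knockout (adjusted p = 0.615) were not called. The estimates were -0.07 in Sohlh1 knockout and 0.18 in Sohlh2 knockout on 1456005_a_at, and -0.48 and 0.07 on 1456006_at, with no call. When the probe sets of a gene were averaged, an alternative setting, Bcl2l11 had -0.37 in Sohlh1 knockout (adjusted p = 0.118) and -0.15 in Sohlh2 knockout (adjusted p = 0.594), so its call rests on 1 of 5 probe sets. Which transcripts each probe set reports was not tested.

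**Figure D2:**
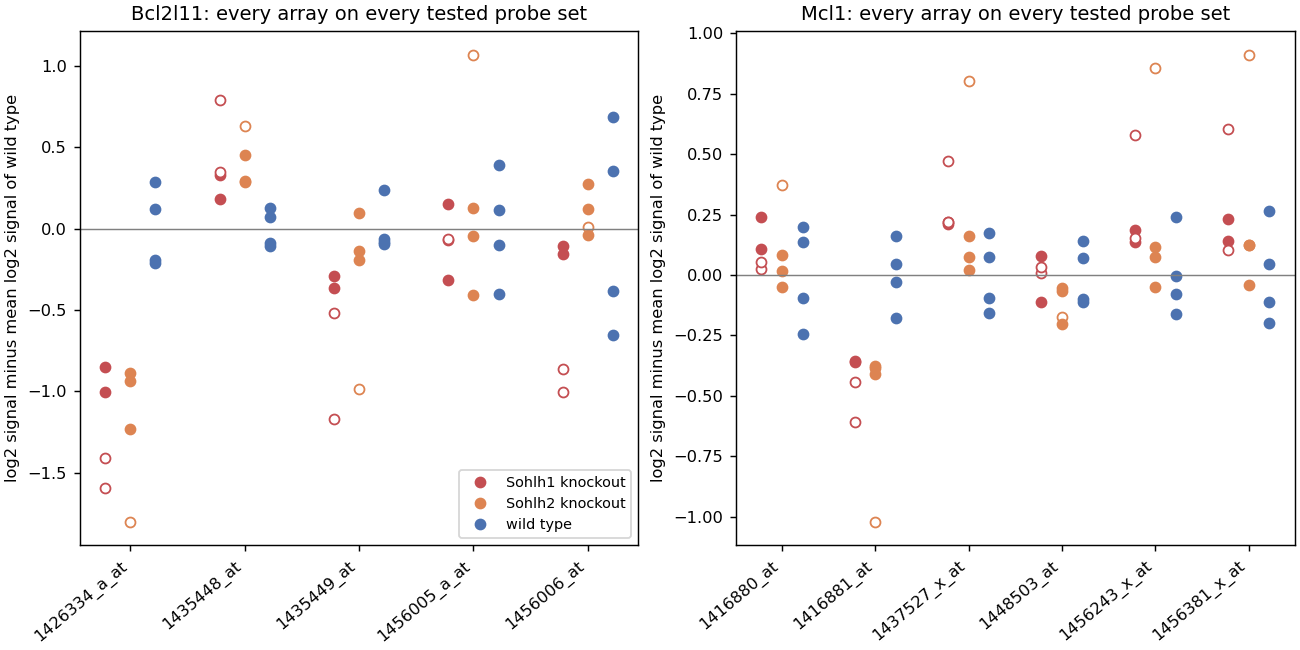
Log2 signal minus the mean log2 signal of wild type on the y axis, for every tested probe set of Bcl2l11 (left) and Mcl1 (right) along the x axis; each point is 1 array, coloured by group, and open points are the 3 arrays with doubtful labels or a high 3′ to 5′ ratio. On Bcl2l11 all knockout arrays lie below wild type on 1426334_a_at and above it on 1435448_at, and on Mcl1 all lie below wild type on 1416881_at alone.

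Bid encodes the BH3-only protein that caspase-8 cuts, which links death receptors to mitochondria. Probe set 1417045_at gave signals of 710.0, 745, 836 and 729 in Sohlh1 knockout and 554, 858, 828 and 725 in Sohlh2 knockout, against 1074, 1022, 1083 and 1305 in wild type. All 8 knockout arrays were below the lowest wild-type array, and the lowest of them was the array labelled Sohlh2 knockout 1. The means were 755 ± 55.8 in Sohlh1 knockout, 741 ± 137 in Sohlh2 knockout and 1121 ± 126 in wild type (SD, n = 4 each). By limma Bid fell by 0.56 on the log2 scale in Sohlh1 knockout (SE 0.13, adjusted p = 0.0471) and by 0.60 in Sohlh2 knockout (SE 0.13, adjusted p = 0.0377), to 67.9% and 65.9% of wild type. For the mean of both knockouts the log2 fold change was -0.58 (SE 0.12, adjusted p = 0.0128). The single-knockout calls sit close to the threshold: leaving out 1 array at a time ended the call in 10 of 12 refits for Sohlh1 knockout and 9 of 12 for Sohlh2 knockout, with values between -0.61 and -0.48 and between -0.68 and -0.47. Only the refits without Sohlh2 knockout 1 or 3-1, and for Sohlh2 knockout also without Sohlh1 knockout 2, kept it. For the mean of both it ended in 1 of 12, without wild type 6 (adjusted p = 0.0690), and without the 3 named arrays the value was -0.48 (adjusted p = 0.0117). Without those 3 arrays the Sohlh1 knockout call was lost at -0.49 (adjusted p = 0.0618), and the Sohlh2 knockout call held at -0.47 (adjusted p = 0.0351). Without only the pair of arrays that go against their labels it was the Sohlh2 knockout call that was lost, at -0.47 (adjusted p = 0.0570), while Sohlh1 knockout stood at -0.54 (adjusted p = 0.0217). Over 30 alternative settings the adjusted p ran between 0.00661 and 0.160 for Sohlh1 knockout, between 0.0151 and 0.215 for Sohlh2 knockout and between 0.00348 and 0.0690 for the mean.

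A further Bid probe set, 1448560_at, gave 149, 226, 216 and 125 in Sohlh1 knockout and 96.6, 213, 217 and 239 in Sohlh2 knockout, against 258, 308, 368 and 477 in wild type. These groups did not overlap with wild type either. The log2 fold changes were -0.93 in Sohlh1 knockout (SE 0.27, adjusted p = 0.105), -0.87 in Sohlh2 knockout (SE 0.27, adjusted p = 0.152) and -0.90 for the mean of both (SE 0.24, adjusted p = 0.0505), all short of the threshold, and the last passed in 13 of 29 alternative settings. The dim probe set 1447873_x_at, with signals of 35.8 to 96.3 on the 12 arrays, overlapped between groups and was not called, with -0.39 in Sohlh1 knockout and -0.43 in Sohlh2 knockout. The averaged Bid signal was lower by 0.63 in each knockout, with adjusted p = 0.0221 in Sohlh1 knockout and 0.0213 in Sohlh2 knockout.

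Pmaip1 encodes NOXA, a BH3-only protein that binds mainly MCL1 and was found as a target of p53. Its single probe set, 1418203_at, gave 331, 544, 448 and 622 in Sohlh1 knockout and 479, 970.2, 590.1 and 433 in Sohlh2 knockout. The wild-type arrays gave 430.2, 184, 236 and 249. The knockout signals were higher except that wild type 3 lay within the Sohlh1 knockout range and just below the lowest Sohlh2 knockout array. The log2 fold change was 0.82 in Sohlh1 knockout (SE 0.27, adjusted p = 0.163) and 1.12 in Sohlh2 knockout (SE 0.27, adjusted p = 0.0581), neither of which passed. Over 30 alternative settings the Sohlh1 knockout difference passed in 1 and the Sohlh2 knockout difference in 12. For the mean of both knockouts Pmaip1 rose by 0.97 (SE 0.24, adjusted p = 0.0369), a 1.96-fold difference. That call was lost in 7 of 12 refits that each left out 1 array (wild type 4, 5 or 6, Sohlh1 knockout 3, 4 or 5, or Sohlh2 knockout 4), with values between 0.81 and 1.20, whereas without the 3 named arrays it stood at 1.05 (adjusted p = 0.0232). Over its 30 alternative settings the adjusted p for the mean ran between 0.00417 and 0.143.

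Bad encodes a BH3-only protein that survival kinases keep inactive by phosphorylation. Its brighter probe set, 1416582_a_at, gave 461, 367, 393 and 398 in Sohlh1 knockout and 544, 500.4, 423 and 456 in Sohlh2 knockout, against 519, 515, 467 and 410.3 in wild type. The 3 groups overlapped, with log2 fold changes of -0.23 (95% interval -0.50 to 0.03) in Sohlh1 knockout and 0.01 (-0.26 to 0.27) in Sohlh2 knockout. Probe set 1416583_at gave 329, 469, 479 and 279.9 in Sohlh1 knockout and 468, 462, 435 and 322 in Sohlh2 knockout, against 474, 530.0, 521 and 528 in wild type. All Sohlh2 knockout arrays lay below wild type, whereas Sohlh1 knockout 4 lay above wild type 3. The estimates of -0.42 in Sohlh1 knockout (adjusted p = 0.264) and -0.29 in Sohlh2 knockout (adjusted p = 0.504) were not called.

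Bbc3 encodes PUMA, a BH3-only target of p53. Probe set 1423315_at gave 73.5, 144, 154 and 168 in Sohlh1 knockout and 114, 128, 147 and 132 in Sohlh2 knockout, against 174, 131, 143 and 243 in wild type. These groups overlapped, and the estimates of -0.35 (95% interval -0.86 to 0.17) in Sohlh1 knockout and -0.34 (-0.86 to 0.17) in Sohlh2 knockout did not pass.

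Bak1 encodes the pore-forming effector BAK. On probe set 1418991_at it gave 261, 246, 314 and 209 in Sohlh1 knockout and 305, 257, 174 and 227 in Sohlh2 knockout, against 303, 228, 239 and 182 in wild type. The arrays of all groups were mixed, with 0.11 (95% interval -0.30 to 0.52) in Sohlh1 knockout and 0.01 (-0.40 to 0.42) in Sohlh2 knockout. A further Bak1 probe set, 1425716_s_at, was too dim to be tested, since only 3 arrays exceeded the filter value of 48.6. Its signals were 9.27, 38.5, 33.2 and 10.6 in Sohlh1 knockout and 15.1, 35.0, 11.0 and 13.5 in Sohlh2 knockout, against 66.3, 76.1, 61.1 and 47.3 in wild type. All wild-type arrays were above all knockout arrays on this dim probe set, which may bind more than 1 gene's transcript by the naming of its kind.

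Among the anti-apoptotic genes, Mcl1, whose short-lived product guards BAK, had 1 called probe set of 6. Probe set 1416881_at gave 1020, 1216, 1214 and 1145 in Sohlh1 knockout and 766, 1190, 1173 and 1198 in Sohlh2 knockout, against 1375, 1740, 1605 and 1525 in wild type. All knockout arrays lay below all wild-type arrays. The log2 fold change was -0.44 in Sohlh1 knockout (SE 0.14, adjusted p = 0.139) and -0.54 in Sohlh2 knockout (SE 0.14, adjusted p = 0.0692), and it passed for the mean of both, where Mcl1 fell by 0.49 (SE 0.12, adjusted p = 0.0369) to 71.2% of wild type. That call was lost in 7 of 12 refits without 1 array (wild type 4, 5 or 6, or any Sohlh1 knockout array), with values between -0.55 and -0.41, and was -0.37 without the 3 named arrays (adjusted p = 0.0185). Over 29 alternative settings its adjusted p ran between 0.00419 and 0.140.

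The other Mcl1 probe sets had estimates of 0.00 to 0.28 in Sohlh1 knockout and -0.12 to 0.28 in Sohlh2 knockout, none called. Among them, 1416880_at stood at 0.11 in Sohlh1 knockout and 0.10 in Sohlh2 knockout. On 1448503_at the means were 4365 ± 240.1 in Sohlh1 knockout, 3999 ± 206 in Sohlh2 knockout and 4367 ± 381 in wild type (SD, n = 4 each), a difference of 0.00 (95% interval -0.18 to 0.18) and -0.12 (-0.30 to 0.06). The 3 probe sets ending in _x_at, a name given where probes can also bind other transcripts, were highest on the array labelled Sohlh2 knockout 1, with 6193 on 1437527_x_at, 5250 on 1456243_x_at and 3372 on 1456381_x_at. This array was the lowest of all on 1416881_at. On 1437527_x_at the Sohlh1 knockout arrays had 4935, 4112, 4135 and 4139 and the other Sohlh2 knockout arrays 3607, 3970.5 and 3743, against 4013, 3744, 3330.4 and 3190.2 in wild type. All Sohlh1 knockout arrays were thus above wild type on this probe set, with an estimate of 0.28 that was not called (adjusted p = 0.399). The averaged Mcl1 signal differed by 0.08 in Sohlh1 knockout and 0.04 in Sohlh2 knockout, and was not called.

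Bcl2 encodes the founding survival protein of the family. Its brightest probe set, 1457687_at, gave 311, 236, 268 and 224 in Sohlh1 knockout and 319, 260, 303 and 281 in Sohlh2 knockout, against 303, 303, 292 and 309 in wild type. The wild-type arrays lay within the range of the knockout arrays, and the differences of -0.22 (95% interval -0.50 to 0.06) in Sohlh1 knockout and -0.06 (-0.34 to 0.22) in Sohlh2 knockout were not called. On 1437122_at the Sohlh2 knockout arrays had 147, 159, 156 and 145, above the Sohlh1 knockout arrays with 124, 88.3, 119 and 91.4 and the wild-type arrays with 125, 121, 115 and 91.2. The Sohlh2 knockout difference from wild type was 0.39 (adjusted p = 0.340). The third tested Bcl2 probe set, 1422938_at, overlapped between groups at 39.6 to 125.

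Bcl2l1 encodes BCL-XL and a short splice form that promotes death. Its brightest probe set, 1420888_at, gave 1145, 1172, 1096 and 1045 in Sohlh1 knockout and 1573, 973, 1026 and 1080 in Sohlh2 knockout, against 971, 898, 900.5 and 1075 in wild type. The groups overlapped, and the differences of 0.21 (95% interval -0.07 to 0.50) in Sohlh1 knockout and 0.25 (-0.04 to 0.53) in Sohlh2 knockout were not called. The estimates on 1420887_a_at were -0.14 and -0.35 and on 1426191_a_at -0.28 and -0.46 in Sohlh1 knockout and Sohlh2 knockout, again without a call. The 3 remaining untested probe sets, Bcl2 1440770_at, Bcl2 1443837_x_at and Bcl2l1 1426050_at, had signals of 1.23 to 39.5, 27.1 to 75.3 and 4.34 to 58.7.

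**Figure D3:**
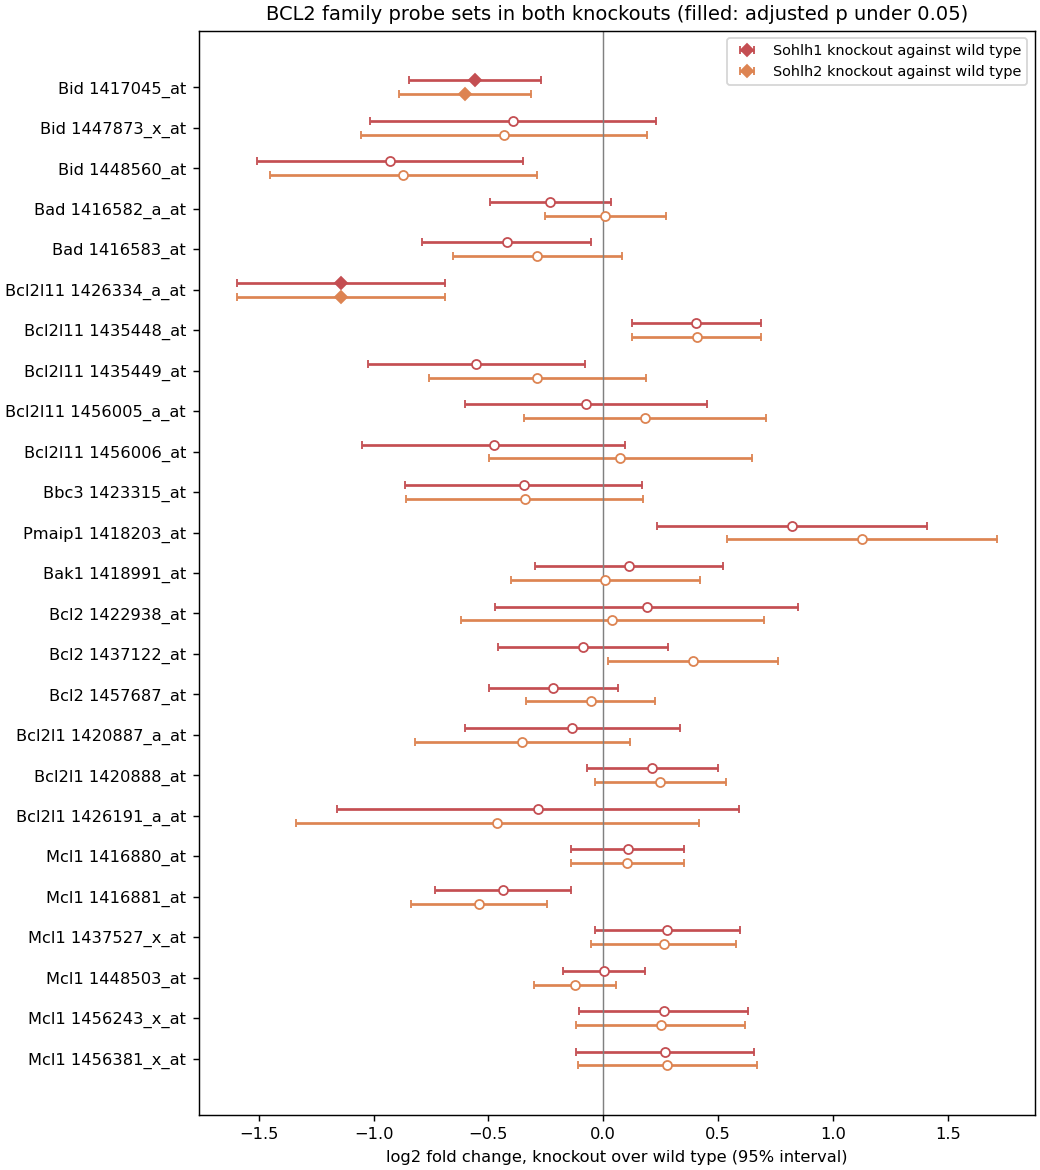
Log2 fold change with its 95% interval on the x axis for each of the 25 tested probe sets down the y axis, Sohlh1 knockout against wild type above Sohlh2 knockout against wild type; filled diamonds have an adjusted p under 0.05. Bid 1417045_at and Bcl2l11 1426334_a_at are filled in both knockouts, at -0.56 and -0.60 and at -1.14 and -1.14.

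Taken as a family, 2 of 25 tested probe sets fell and 0 rose in Sohlh1 knockout, where 1.38% of all tested probe sets fell and 0.707% rose. In Sohlh2 knockout the same 2 fell and 0 rose, against 0.944% and 0.606% of all tested probe sets. Both comparisons share the 4 wild-type arrays. For the mean of both knockouts 3 fell and 1 rose, against 2.13% and 1.35% overall. The groups did not overlap on 7 of 25 in Sohlh1 knockout, 8 of 25 in Sohlh2 knockout and 5 of 25 when all 8 knockout arrays were set against wild type, where 11.2%, 8.82% and 5.09% of all tested probe sets did not overlap. The median log2 fold change over the 25 was -0.14 in Sohlh1 knockout and 0.01 in Sohlh2 knockout, beside -0.0027 and -0.0038 over all tested probe sets. In Sohlh1 knockout 15 of the 25 estimates were below 0, and in Sohlh2 knockout 12 were.

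Sohlh2 knockout was also compared with Sohlh1 knockout. By limma 0 of 25 probe sets differed (0% of all tested probe sets did), and 1 had an unadjusted p under 0.05, which 2.67% of all tested probe sets had. That one was Bcl2 1437122_at, higher in Sohlh2 knockout by 0.48 (SE 0.17, unadjusted p = 0.0146). The differences ran between -0.22 and 0.55, on Bcl2l11 1456006_at, and their 95% intervals lay within -1.05 to 1.12. Each knockout group in this comparison includes 1 array that goes against its label, and without both of these arrays the Bcl2 1437122_at difference was 0.44, again with no call.

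In whole testis, fewer cells of a type and less RNA per cell cannot be told apart. The summed germ cell markers were lower in both knockouts, while single markers went both ways. Their 13 probe sets summed to 34853 to 41842 in Sohlh1 knockout and 36246 to 42962 in Sohlh2 knockout, against 44144 to 52289 in wild type. Such sums are weighted to the brightest probe sets and do not count cells. Dazl 1449502_at and 1419542_at alone averaged 11313.5 and 12281 in wild type. Of the 13, 3 fell in each knockout, 1 each of Kit, Crabp1 and Dmrtb1, while the pan-germ-cell marker Ddx4 stood at 0.11 in Sohlh1 knockout and 0.07 in Sohlh2 knockout and was not called. Also uncalled in Sohlh1 knockout and Sohlh2 knockout were Stra8 at -0.46 and -0.38, Dazl 1419542_at at -0.11 and -0.03, and Tex14 at 0.31 and 0.38. In the same order, Dazl 1449502_at stood at -0.51 and -0.37, Mael at -0.29 and -0.22, and Kit 1415900_a_at at -1.48 and -1.86. Zbtb16 stood at -0.48 and -0.49 on 1427638_at, -0.18 and -0.23 on 1439163_at, and 0.26 and 0.14 on 1419874_x_at. None of these passed. The median over the 13 was -0.46 in Sohlh1 knockout and -0.37 in Sohlh2 knockout. The 7 Sertoli probe sets summed to 23344 to 24841 in Sohlh1 knockout and 21022 to 23394 in Sohlh2 knockout, against 20145 to 22289 in wild type, with 0 called by limma. Every Sohlh1 knockout sum of the Sertoli markers was above the wild-type range. The summed Leydig, peritubular, endothelial, leukocyte and erythroid markers overlapped between each knockout and wild type. The part of these shifts in the values of Bcl2l11, Bid, Pmaip1 and Mcl1 was not tested.

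Genes around the family were read from further lists, in the order of the pathway. Among p53 and its targets 17 of 19 genes were tested with 32 probe sets. Of these, 1 fell in Sohlh1 knockout and 2 fell in Sohlh2 knockout, all of Ccng1, a p53 target that encodes cyclin G1. Ccng1 1450016_at gave 826, 985, 761 and 840.1 in Sohlh1 knockout and 739.9, 995, 995 and 1017 in Sohlh2 knockout, against 2609, 3026, 2811 and 3273 in wild type. The groups were far apart, with -1.76 in Sohlh1 knockout (SE 0.12, adjusted p = 4.65e-06) and -1.64 in Sohlh2 knockout (SE 0.12, adjusted p = 1.09e-05). Ccng1 1450017_at fell by 0.65 in Sohlh2 knockout (adjusted p = 0.0377) and stood at -0.50 in Sohlh1 knockout (adjusted p = 0.0984), and 1420827_a_at stood at 0.11 in Sohlh1 knockout and 0.08 in Sohlh2 knockout with no call. On 1450017_at the array labelled Sohlh2 knockout 1 had 435, against 595 to 773 on the other Sohlh2 knockout arrays. Among the family's own p53 targets, Pmaip1 rose in the mean of both knockouts and Bbc3 was not called. Mdm4, a partner of MDM2 in holding p53 down, stood at -0.56 in Sohlh1 knockout and -0.58 in Sohlh2 knockout on 1419558_at (adjusted p = 0.131 and 0.138). The brighter Mdm4 1460542_s_at went the other way without a call. It gave 708 to 912 in Sohlh1 knockout and 792 to 835 in Sohlh2 knockout, against 551 to 734 in wild type. Mdm4 1453982_at gave 31.8 to 96.8 in Sohlh1 knockout and 59.2 to 129.8 in Sohlh2 knockout, against 21.5 to 61.2 in wild type. Perp, a membrane protein induced by p53, stood at -0.88 in Sohlh1 knockout and -0.71 in Sohlh2 knockout on 1416271_at (adjusted p = 0.121 and 0.252). The list's median was -0.12 in Sohlh1 knockout and -0.14 in Sohlh2 knockout.

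Among apoptosome, caspase and mitochondrial genes 18 of 20 were tested with 35 probe sets. Birc5, which encodes the cell-division and survival protein survivin, fell in Sohlh1 knockout on 1424278_a_at, with 1230, 1120, 1257 and 1195 in Sohlh1 knockout and 1614, 1613, 1358 and 1229 in Sohlh2 knockout, against 1872, 1566, 1695 and 1578 in wild type. Its change was -0.48 in Sohlh1 knockout (SE 0.11, adjusted p = 0.0326) and -0.21 in Sohlh2 knockout (adjusted p = 0.409), and the direct difference of 0.26 between the knockouts was not called. Each group includes an array that goes against its label, with 1195 on Sohlh1 knockout 5 and 1614 on Sohlh2 knockout 1. Cycs, which encodes cytochrome c, rose in the mean of both knockouts by 0.29 on 1456071_a_at (adjusted p = 0.0413). The other Cycs probe sets were not called there, and no Cycs probe set was called in a single knockout. Casp9, the initiator caspase of the apoptosome, stood at 0.32 in each knockout on 1437537_at (adjusted p = 0.135 and 0.155). The dimmer Casp9 1426125_a_at gave 80.7 to 188 in Sohlh1 knockout and 56.5 to 280 in Sohlh2 knockout, against 164 to 299 in wild type. Htra2, a mitochondrial protease, stood at -0.37 in Sohlh1 knockout and -0.23 in Sohlh2 knockout on 1460495_s_at (adjusted p = 0.174 and 0.444). Htra2 1436269_s_at gave 351 to 512 in Sohlh1 knockout and 355 to 567 in Sohlh2 knockout, against 364 to 568 in wild type.

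By limma, 0 of 17 probe sets of other BCL2 family and BNIP3 genes (9 of 15 genes tested), 0 of 13 of the death receptor pathway (5 of 9 genes) and 0 of 51 of regulators of BH3-only genes and proteins (15 of 17 genes) were called in any comparison. Bik, the BH3-only partner of BIM in the testis, stood at 0.29 in Sohlh1 knockout and 0.47 in Sohlh2 knockout on 1420362_a_at (adjusted p = 0.426 and 0.199). Bcl2l2, which encodes the survival protein BCL-W, stood at -0.47 in Sohlh1 knockout and -1.01 in Sohlh2 knockout on 1430454_x_at (adjusted p = 0.699 and 0.389). That probe set was dim, at 3.58 to 174.9, and the 3.58 was on the array labelled Sohlh2 knockout 1. The brighter Bcl2l2 1423572_at gave 953 to 1124 in Sohlh1 knockout and 745 to 1030 in Sohlh2 knockout, against 867 to 980 in wild type. Of the death receptor genes, Tnfsf10, the ligand TRAIL, stood at 0.24 in Sohlh1 knockout and 0.41 in Sohlh2 knockout on 1439680_at (adjusted p = 0.772 and 0.617), and Cflar, the caspase-8 inhibitor c-FLIP, at 0.13 in Sohlh1 knockout and 0.11 in Sohlh2 knockout on 1424996_at (adjusted p = 0.624 and 0.710). Tnfsf10 1459913_at, also dim, gave 43.4 to 71.3 in Sohlh1 knockout and 19.7 to 44.1 in Sohlh2 knockout, against 31.9 to 65.7 in wild type. Foxo3, a forkhead factor known to drive Bcl2l11, stood at 0.41 in Sohlh1 knockout and 0.73 in Sohlh2 knockout on 1434831_a_at (adjusted p = 0.360 and 0.0955). The array labelled Sohlh2 knockout 1 had 3679 there, against 1636 to 2533 on the other Sohlh2 knockout arrays and 1215 to 1730 in wild type. Sohlh1 knockout, Sohlh2 knockout and wild type gave 173 to 363, 129 to 290 and 224 to 366 on Foxo3 1450236_at. On Foxo3 1434832_at they gave 1074 to 1325, 1229 to 1546 and 875 to 1306. Ywhaz, a 14-3-3 protein of the family that holds phosphorylated BAD, stood at 0.16 in Sohlh1 knockout and 0.37 in Sohlh2 knockout on 1416103_at (adjusted p = 0.621 and 0.208). The medians of these 3 lists lay between -0.05 and 0.12 in the single knockouts.

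**Figure D4:**
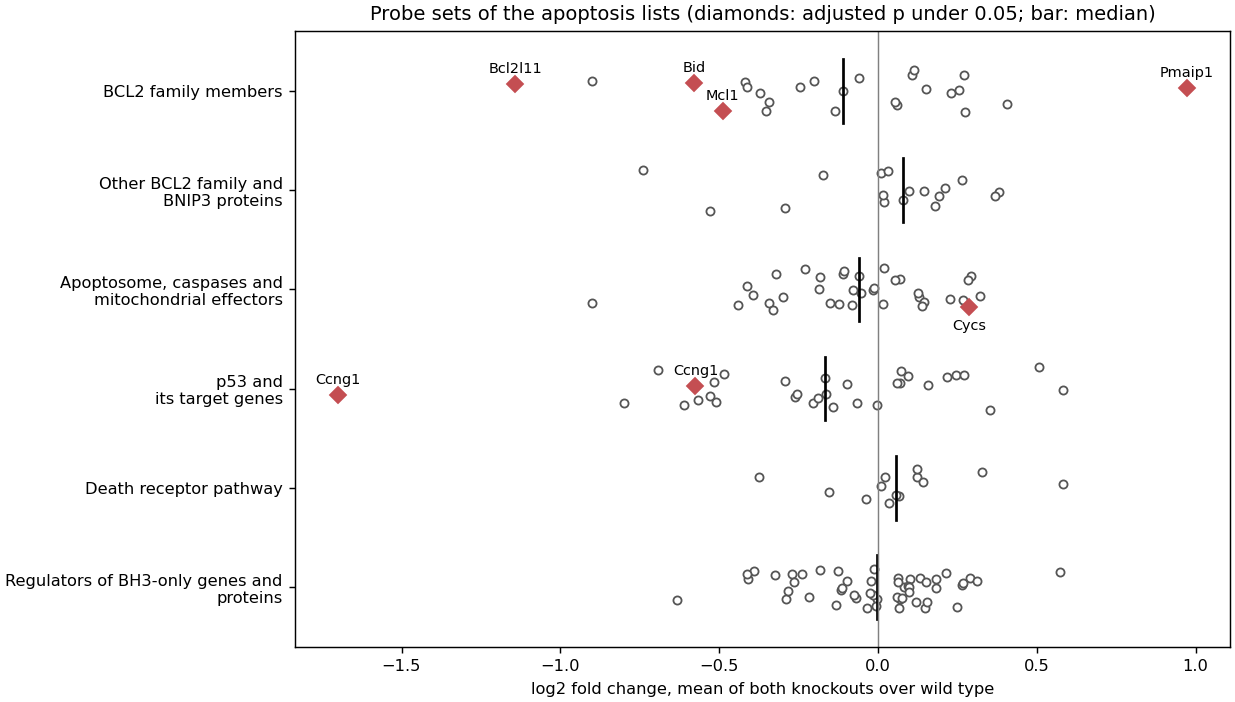
Log2 fold change of the mean of both knockouts over wild type on the x axis for every tested probe set of the BCL2 family members and 5 further lists down the y axis; diamonds have an adjusted p under 0.05 and carry the gene name, and the bar is the list's median. Beyond the 4 called members, the named points are Ccng1 at -1.70 and -0.57 and Cycs at 0.29.

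Over the 12 arrays, the tested probe sets whose log2 signal was most like Bcl2l11 1426334_a_at belonged to Gatad2b, Ppp6c, Ap2b1, Mob1b and Pold1, with Pearson r of 0.99, 0.97, 0.97, 0.97 and 0.96. These correlations are a description over 12 arrays in 3 groups, and all of them share the split between knockout and wild-type arrays. Gatad2b, for example, had 508 to 611 in Sohlh1 knockout and 493 to 584 in Sohlh2 knockout, against 683 to 796 in wild type.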

How the data were processed

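Whole-testis RNA was hybridised to 12 single-colour Affymetrix arrays, labelled from an oligo(dT) primer per the labels' protocols. The deposited table holds signal intensity on a linear scale; the submitters' processing notes name MAS5 and GCOS as the authors' tools, whose settings are not given here. Each array had the same 2% trimmed mean of 500.0, and array medians were 76.6 to 90.8. The titles gave groups and replicate numbers. Precision is limited by there being 4 arrays per group.

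The deposited intensity was turned to log2(signal + 14.2), 14.2 being the 20th percentile of all values. The 64 control probe sets were left out, and the 28694 of 45037 others that exceeded 48.6 (the 40th percentile) on 4 arrays or more were tested. All arrays were fitted at once with limma 3.58.1 (lmFit, contrasts.fit and eBayes with a trend; R 4.3.3), with Benjamini-Hochberg adjustment over all tested probe sets. The offset draws fold changes of dim probe sets towards 0. On simulated data for Sohlh1 knockout against wild type (28694 probe sets), 28% of 50 changes of 1.5-fold, 50% of 2-fold, 74% of 3-fold and 90% of 4-fold were recovered. There 7 unchanged probe sets were also called. The simulated noise was independent between probe sets and held no shared array effects, so recovery on the real arrays may differ.

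Members, lists and tests were chosen with earlier results of these data known. All member probe sets are named; values on every array are given for those called and for the brightest of each other gene, with others added where the arrays of a knockout and wild type did not overlap; other probe sets get estimates or ranges. From each list all called genes and otherwise at least the pair of smallest p were named. The alternatives changed the offset, normalization, filter, unit, variance model, arrays, replicate number as a block, and threshold. Symbols came from the platform's annotation, and promoters from RefSeq.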

Additional observations from a re-analysis of the deposited data

Results flagged for a closer look

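On 10 of the 75 sets of 4 arrays (25 tested member probe sets in 3 groups) 1 array stood apart from the other 3 by Dixon's ratio at its 95% critical value. For independent sets chance gives about 1 in 20. These sets are not independent, because they share arrays and several probe sets belong to the same gene. The share over all tested probe sets was not counted, so the 10 are not read as a trait of this family. The array labelled Sohlh2 knockout 1 was the lowest of its group on Bid 1448560_at with a signal of 96.6, against 213 to 239 on the others, on Bcl2l1 1426191_a_at with 31.8, against 174 to 212, and on Mcl1 1416881_at with 766, against 1173 to 1198. It was the highest on Mcl1 1456381_x_at with 3372, against 1744 to 1952. Sohlh1 knockout 2 was the highest on Mcl1 1437527_x_at with 4935, against 4112 to 4139, and on Mcl1 1456243_x_at with 4327, against 3187 to 3296. These are the arrays with the high 3′ to 5′ ratio of actin. Sohlh1 knockout 4 was the highest on Bid 1447873_x_at with 77.4, against 43.9 to 46.0. Wild type 6 was the highest on Bcl2l11 1435449_at with 369, against 293 to 300.1, and on Bcl2l1 1420887_a_at with 428, against 261 to 279. Wild type 3 was the lowest on Bad 1416583_at with 474, against 521 to 530.0.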

How the results depend on the processing

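In Sohlh1 knockout the 2 called member probe sets became 1 with no log offset, with no filter, with the brightest probe set per gene, without _x_at, _s_at and _a_at probe sets, without the variance trend, with the replicate block that counts 3-1 as 3, with gene means and without the 3 doubted arrays. They became 5 with array weights, and 4 with only the groups compared and without the 2 high-ratio arrays (3′ to 5′ actin). They also became 4 with a covariate, the log2 of the mean of the actin and Gapdh 3′ to 5′ ratios. They became 0 with the replicate block that keeps 3-1 apart and at an adjusted p under 0.01. In Sohlh2 knockout the 2 became 1 without the trend, with only the groups compared and with the first replicate block. They became 0 with the second replicate block and at 0.01, 5 with array weights, and 4 without the high-ratio arrays, without all 3 and with the covariate. For the mean of both the 4 became 2 with the brightest probe set, without the trend, with the second replicate block and with gene means, 1 at 0.01, and 6 with array weights and without the high-ratio arrays. Without the pair of arrays that go against their labels the counts were 3 in Sohlh1 knockout, 2 in Sohlh2 knockout and 5 for the mean. Leaving out 1 array at a time gave 0 to 4 in Sohlh1 knockout, 0 to 3 in Sohlh2 knockout and 1 to 5 for the mean, and 0 between the knockouts in every setting run. Over all probe sets the counts of 600, 445 and 1000 ran between 183 and 1238, 98 and 1075, and 343 and 1925. The alternatives that left out or modelled the doubted arrays were chosen after seeing the data. Whether the replicate numbers pair the samples was not settled. The deviations of 9 same-numbered pairs, taken by their labels, correlated at -0.12 to 0.10, with 1 over 0.1. Low correlations over all probe sets cannot exclude pairing. No called log2 fold change reversed, while 191 uncalled values changed sign; the cause of each change was not tested. Gene means give no value per probe set.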
